A study of Mus musculus with 8 samples.

Results

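The genes described here are 10 secreted modulators of Wnt signalling, Sfrp1, Sfrp2, Sfrp4, Sfrp5, Frzb, Wif1, Dkk2, Dkk3, Wisp2 and Rspo3. They were chosen by gene symbol, and each symbol matched 1 of the 37979 genes listed. Their levels were compared between pericytes and SMCs sorted from hindlimb skeletal muscle of Ai14+/-;SM22α-Cre+ mice of both sexes, aged 3 to 4 months. All libraries, of both cell types, came from mice of this genotype, in which Cre under the SM22α promoter permanently switches on tdTomato. Cells were depleted of CD31 and CD45 signal and gated as PDGFRβ+, and pericytes were the tdTomato- cells and SMCs the tdTomato+ cells, so a pericyte that had ever used the SM22α promoter was sorted as an SMC. There were 4 libraries of each, numbered 1 to 4, each from roughly 60000 cells pooled over several sorts, and whether libraries of 1 number share mice was not stated. All 8 carry the same batch label, but replicates 1 and 2 stood apart from replicates 3 and 4. Across the 13612 genes that averaged 1 FPKM or more, which are not independent replicates, the correlation of log2(FPKM + 1) between SMC libraries was 0.977 for replicates 1 and 2, 0.964 for 3 and 4, and 0.911 to 0.932 across, and between pericyte libraries 0.939, 0.959 and 0.902 to 0.933.

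Wnt proteins are secreted, lipid-modified ligands that bind Frizzled receptors and the coreceptors Lrp5 and Lrp6 and can stabilise β-catenin in the receiving cell. Secreted Frizzled-related proteins (the Sfrp genes and Frzb) carry a domain like the ligand-binding part of Frizzled and bind Wnt outside the cell, and Wif1 binds Wnt through a domain of its own. Dickkopf proteins such as Dkk2 bind the Lrp coreceptors, R-spondins such as Rspo3 raise the response to Wnt through Lgr receptors, and Wisp2 belongs to the CCN family of matricellular proteins. In skeletal muscle, Wnt signals are known from muscle repair and from the connective tissue around fibres and vessels.

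Levels are FPKM, fragment counts scaled by transcript length and by the mapped fragments of the library, so that they can be compared between genes. Depth was estimated from the spacing of the lowest values, in units of 1e06 fragments, as 21.1 to 25.5 in pericyte libraries and 24.2 to 25.8 in SMC libraries. Pericyte replicate 2 stood apart in its summed FPKM, at 1.19e+06 against 656405 to 782014 in the other libraries. Genes of the sort and markers of cell types were measured first. Pdgfrb, the gated receptor, had 15.6 to 91.5 FPKM in SMCs and 3.21 to 17.6 FPKM in pericytes (limma q = 0.0973). Ptprc, which encodes CD45, had 4.34 to 11.9 FPKM in SMCs and 80.6 to 230 FPKM in pericytes (limma q = 4.0e-04). Pecam1, which encodes CD31, had 102 to 301 FPKM in SMCs and 25.0 to 59.7 FPKM in pericytes (limma q = 0.00873). All 5 pan-leukocyte markers, all 6 T cell markers and all 5 B cell markers were higher in pericytes (limma q below 0.05), and the T cell markers summed to between 1555 and 2467 FPKM in pericyte libraries and between 26.1 and 39.8 FPKM in SMC libraries. All 10 markers of fibroblasts and fibro-adipogenic progenitors, 7 of 8 endothelial markers, 6 of 7 tendon markers and 5 of 7 macrophage markers were higher in SMCs. Of these, the macrophage marker Emr1 kept its call in 7 of 17 alternatives. The tendon count fell to 4 without SMC replicate 1, SMC replicate 2 or pericyte replicate 3. It rose to 7 when genes had to reach 1 FPKM in 4 libraries. Of the 7 pericyte markers, Rgs5 passed the test, with a higher level in SMCs (limma q = 0.0240), a call that ended without SMC replicate 3, SMC replicate 4 or pericyte replicate 1 (q at most 0.0656). With replicates 1 and 2 against 3 and 4 as a covariate 5 of the 7 were higher in SMCs, and 4 when genes had to reach 1 FPKM in 4 libraries. None of the 7 smooth muscle markers passed the main test (limma, smallest q = 0.0979), whereas 1 did with that covariate or with quantile scaling, 2 with TPM scaling and 3 with that filter, all higher in SMCs. The median log2 difference, SMCs minus pericytes, was 1.31 over the pericyte markers and 1.34 over the smooth muscle markers. Cspg4, Kcnj8, Abcc9 and Myh11 were above 0 in every library. In bulk RNA, fewer cells of a type and less RNA per cell cannot be told apart.

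The 10 genes lie on 7 chromosomes of NCBI Build 37, and all are annotated as protein coding. Sfrp2 and Dkk2 are both on chromosome 3, Frzb and Wisp2 on chromosome 2, and Wif1 and Rspo3 on chromosome 10. Sfrp2, from 83570243 to 83578238 on the plus strand, is overlapped by the antisense long noncoding gene Gm16790, and the library kit does not keep strand, so reads of both cannot be told apart. Gm16790 was listed at 5.14 to 7.70 FPKM in SMCs and 0.418 to 1.07 FPKM in pericytes. The other 9 genes overlap no annotated gene.

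Promoter sequences were taken from RefSeq (build GRCm38.p6, a later build than that of the reads), in which 5 of the 10 genes matched, Sfrp2, Sfrp5, Dkk2, Frzb and Wif1. Each window holds 300 bases, 250 before the start site and 50 after it. The windows were searched on both strands for 3 motifs, whose matches do not overlap in these windows. The letters TCAAAG are the TCF/LEF core, through which partners of β-catenin bind DNA. The letters TATAAA stand for the TATA box, and GGGCGG for the GC box. The TCF/LEF core was found in 1 of the 5 windows and in 16.0% of all 32851 promoters, the TATA box in 2 of 5 and 13.6%, and the GC box in 4 of 5 and 35.7%. Sfrp2 held none of these letters, which says only that they are not in this window. Below are 2 genes that were higher in SMCs, Dkk2 (chr3:132085042-132085341, plus strand) and Wif1 (chr10:121033754-121034053, plus strand), and 2 that did not pass the main test, Frzb (chr2:80447347-80447646, minus strand) and Sfrp5 (chr19:42202203-42202502, minus strand). They are shown so that windows of genes called by the main test can be read beside windows of genes that it did not call, and capitals mark the matches.
Dkk2: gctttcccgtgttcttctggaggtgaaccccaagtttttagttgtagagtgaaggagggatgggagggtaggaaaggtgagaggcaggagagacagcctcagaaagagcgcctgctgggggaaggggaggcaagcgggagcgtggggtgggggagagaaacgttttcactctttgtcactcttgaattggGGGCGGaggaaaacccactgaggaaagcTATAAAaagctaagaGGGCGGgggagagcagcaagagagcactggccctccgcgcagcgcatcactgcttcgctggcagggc
Wif1: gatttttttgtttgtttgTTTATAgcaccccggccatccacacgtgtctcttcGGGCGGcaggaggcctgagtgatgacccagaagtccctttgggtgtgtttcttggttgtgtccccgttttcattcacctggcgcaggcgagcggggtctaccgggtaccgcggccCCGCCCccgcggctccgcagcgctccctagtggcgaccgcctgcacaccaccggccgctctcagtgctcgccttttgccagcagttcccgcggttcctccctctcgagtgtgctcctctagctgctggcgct
Frzb: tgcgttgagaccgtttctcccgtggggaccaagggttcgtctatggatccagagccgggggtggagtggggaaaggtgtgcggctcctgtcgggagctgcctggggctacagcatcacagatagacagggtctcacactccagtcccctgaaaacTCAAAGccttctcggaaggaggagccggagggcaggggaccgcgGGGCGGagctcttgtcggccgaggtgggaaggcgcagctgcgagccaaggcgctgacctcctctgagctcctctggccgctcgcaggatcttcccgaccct
Sfrp5: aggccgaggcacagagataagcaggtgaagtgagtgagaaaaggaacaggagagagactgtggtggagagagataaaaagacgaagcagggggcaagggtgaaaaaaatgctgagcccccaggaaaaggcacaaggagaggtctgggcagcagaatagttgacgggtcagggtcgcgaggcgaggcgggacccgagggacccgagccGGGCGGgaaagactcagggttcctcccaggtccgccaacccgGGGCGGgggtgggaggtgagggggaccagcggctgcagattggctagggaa
Dkk2 held a TATA box that began at -32 from the start site, between GC boxes at -60 and -17. In Frzb the TCF/LEF core began at -95, and Wif1 held its TATA box on the opposite strand at -232. The GC content of the 5 windows was 57.7% to 66.0%, against a median of 52.7% over all promoters. A match is a description of letters and not of binding.

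The question asked of each gene was whether its level differed between muscle pericytes and SMCs. Of the 10 genes, 8 were higher in SMCs, 2 did not pass the test and none was higher in pericytes (limma on log2(FPKM + 1), q below 0.05 over 27414 genes). By this rule 11.2% of all genes tested had the higher level in SMCs and 10.6% in pericytes. Of the 13612 genes that averaged 1 FPKM or more, 19.5% were higher in SMCs. The 8 genes are Sfrp1, Sfrp2, Sfrp4, Wif1, Dkk2, Dkk3, Wisp2 and Rspo3, and in each of them the lowest SMC library exceeded the highest pericyte library, as in 12.5% of all genes tested. Sfrp2, Sfrp4, Wif1, Dkk2, Dkk3 and Wisp2 also passed a log2 fold change of 2, which 2.66% of genes tested did in the direction of SMCs and 3.24% in the direction of pericytes. Of the genes that averaged 1 FPKM or more, as all 10 did, 5.35% passed it in the direction of SMCs. The median log2 difference over the 10 genes was 2.80, against -0.02 over all genes tested. The genes were proposed with earlier results of these data known, so their count is a description and not independent evidence. With libraries rescaled to a common sum (TPM), genes with a higher level in SMCs numbered 3734 and those with a higher level in pericytes 2117 in place of 3060 and 2917, and the count for the 10 genes stayed at 8 and 0.

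**Figure D1:**
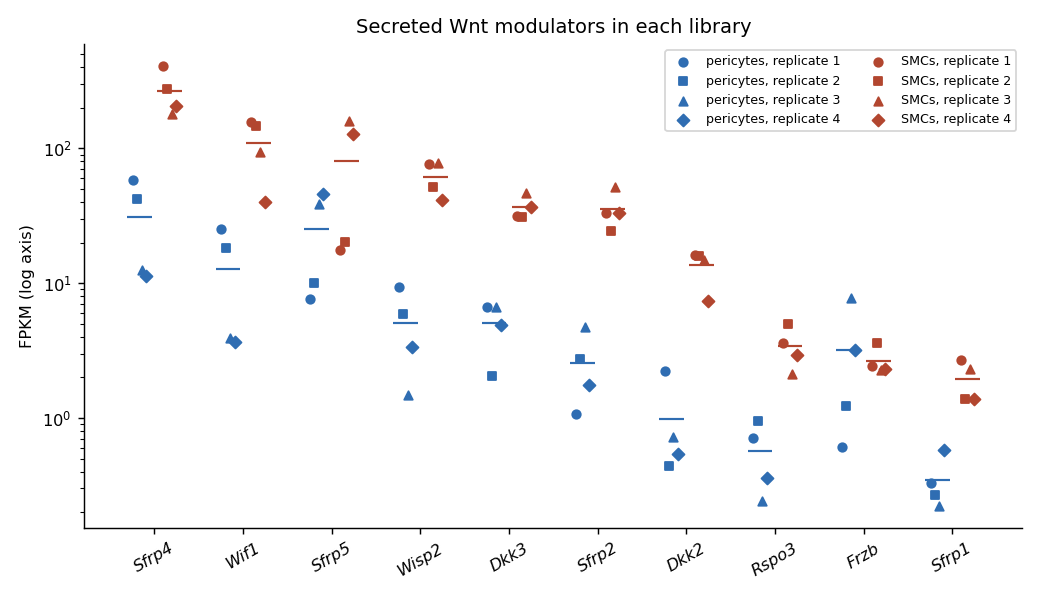
FPKM of the 10 genes on a log axis in each of 4 pericyte (blue) and 4 SMC (red) libraries, with symbols for the replicate number and a bar at the group mean. In 8 genes the red points lie above all blue points, whereas they overlap in Sfrp5 and Frzb.

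Sfrp4 had the highest mean level of the 10 genes in both cell types, although Sfrp5 was above it in pericyte replicates 3 and 4. It lies on chromosome 13 from 19714973 to 19724863 on the plus strand. SMC replicates 1 to 4 had 408, 278, 181 and 207 FPKM, and pericyte replicates 1 to 4 had 57.8, 42.0, 12.6 and 11.2 FPKM. The groups did not overlap, and in both of them replicates 1 and 2 had the highest levels. SMCs averaged 268 ± 102 FPKM (SD, n = 4), 8.68 times the pericyte average of 30.9 ± 22.9 FPKM (SD, n = 4). The log2 difference was 3.33 (standard error 0.58, limma q = 0.00594).

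Sfrp2 was low in pericytes and readily measured in SMCs. Its level was 33.1, 24.6, 51.9 and 32.9 FPKM in SMC replicates 1 to 4 and 1.07, 2.73, 4.72 and 1.74 FPKM in pericyte replicates 1 to 4. The groups were far apart, and replicate 3 was the highest library in each. With all libraries the ratio of the mean FPKM was 13.9, the largest among the 10 genes (Dkk2 had 13.7). Pericyte replicate 1 had 2.24 FPKM of Dkk2 and the other pericyte libraries at most 0.728 FPKM. The order of Sfrp2 and Dkk2 by this ratio therefore rests on that library. The log2 difference was 3.42 (standard error 0.35, limma q = 5.9e-04).

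Sfrp1, which had the lowest mean level in both cell types but not the lowest level in every library, is on chromosome 8 from 24521974 to 24560104 on the plus strand. In SMC replicates 1 to 4 it had 2.69, 1.37, 2.30 and 1.38 FPKM, and in pericyte replicates 1 to 4 it had 0.331, 0.269, 0.222 and 0.574 FPKM. The groups did not overlap, and the values correspond to an estimated 148 to 271 fragments per SMC library and 23 to 61 per pericyte library. The log2 difference was 1.10 (standard error 0.17, limma q = 0.00375), on a scale that understates the change of low genes, while the ratio of the mean FPKM was 5.54.

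Sfrp5, on chromosome 19 from 42272461 to 42276742 on the minus strand, did not pass the test. SMC replicates 1 to 4 had 17.6, 20.1, 159 and 128 FPKM, and pericyte replicates 1 to 4 had 7.60, 10.04, 38.4 and 45.5 FPKM. Replicates 3 and 4 were several times higher than replicates 1 and 2 in both groups, and the groups overlapped because SMC replicates 1 and 2 lay below pericyte replicates 3 and 4. The log2 difference was 1.39 with a 95% interval of -0.83 to 3.60 (limma q = 0.398). With replicates 1 and 2 against 3 and 4 as a covariate it was called higher in SMCs (limma q = 0.00238), and the SMC library was the higher of all 4 same-numbered libraries. Its ratio of highest to lowest library was 9.01 in SMCs and 5.99 in pericytes, and the interval still allows a difference as large as those of the other Sfrp genes. The summed level of the 5 Schwann cell markers was also higher in replicates 3 and 4, at 330 to 344 FPKM against 108 to 125 FPKM in SMCs and at 534 to 657 FPKM against 103 to 147 FPKM in pericytes, as were the 7 pericyte markers, at 228 to 328 FPKM against 75.9 to 91.2 FPKM in SMCs and at 64.0 to 97.0 FPKM against at most 39.4 FPKM in pericytes. The endothelial and smooth muscle sums were higher in replicates 3 and 4 in SMCs, at 858 to 1108 FPKM against 366 to 532 FPKM and at 3491 to 5818 FPKM against 1792 to 2066 FPKM, but not in both of these replicates in pericytes. The part of these transcripts in the Sfrp5 values was not tested.

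Frzb, which encodes the Frizzled-related protein Sfrp3, had like means in both cell types. It lies on chromosome 2 from 80252127 to 80287782 on the minus strand. SMC replicates 1 to 4 had 2.44, 3.62, 2.28 and 2.32 FPKM, and pericyte replicates 1 to 4 had 0.614, 1.23, 7.74 and 3.21 FPKM. The SMC libraries lay close together, whereas pericyte replicates 1 and 2 were below all of them and pericyte replicate 3 was above all of them. The log2 difference was 0.10 with a 95% interval of -1.09 to 1.28 (limma q = 0.923), so a change of up to about that size in either direction is not excluded by these libraries. The difference turned negative, still without passing the test, when pericyte replicate 1 (-0.26), pericyte replicate 2 (-0.10) or SMC replicate 2 (-0.02) was left out.

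Wif1, the Wnt inhibitory factor, was second to Sfrp4 by mean level in SMCs. Its locus is on chromosome 10 from 120471016 to 120537706 on the plus strand. SMC replicates 1 to 4 had 156, 146, 94.0 and 39.7 FPKM, and pericyte replicates 1 to 4 had 25.4, 18.3, 3.89 and 3.64 FPKM. All SMC libraries were above all pericyte libraries, but SMC replicate 4 and pericyte replicate 1 were near each other, and in both groups replicates 1 and 2 were the highest. The ratio of the mean FPKM was 8.51, and the log2 difference was 3.23 (standard error 0.72, limma q = 0.0178). With single libraries left out, its q value rose to at most 0.0496 (limma, without SMC replicate 2).

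**Figure D2:**
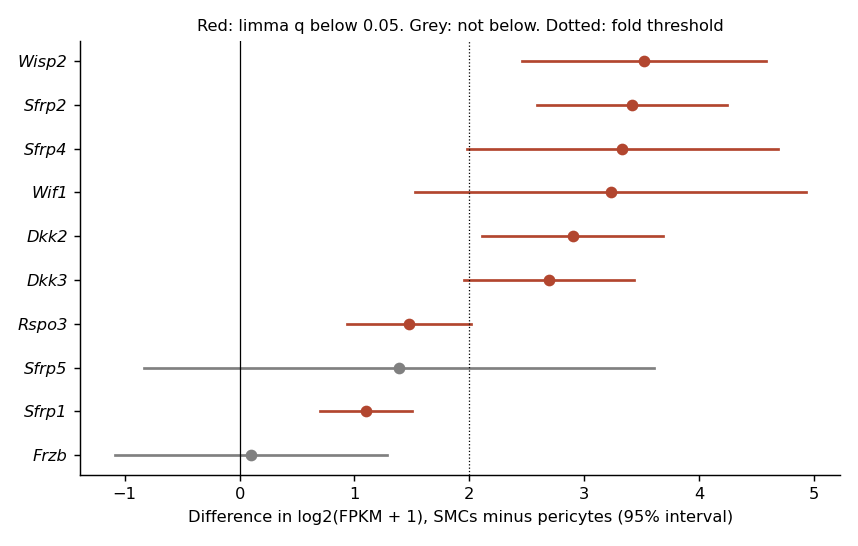
Difference in log2(FPKM + 1) between SMCs and pericytes for the 10 genes (4 libraries each), with the 95% interval of limma's moderated fit as a line, red where q was below 0.05 and grey where it was not. The intervals of Sfrp5 and Frzb cross 0, and those of the other 8 genes lie above it.

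The Dickkopf genes were both higher in SMCs. Dkk2, on chromosome 3 from 131748256 to 131843257 on the plus strand, had 16.2, 15.8, 14.9 and 7.37 FPKM in SMC replicates 1 to 4 and 2.24, 0.443, 0.728 and 0.544 FPKM in pericyte replicates 1 to 4. SMC replicate 4 lay below the other SMC libraries, and pericyte replicate 1 above the other pericyte libraries, without overlap between the groups. The log2 difference of Dkk2 was 2.90 (standard error 0.34, limma q = 0.00101).

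Dkk3, a divergent Dickkopf relative, lies on chromosome 7 from 119259533 to 119302571 on the minus strand. It had 31.3, 31.2, 46.8 and 36.5 FPKM in SMC replicates 1 to 4 and 6.71, 2.04, 6.603 and 4.93 FPKM in pericyte replicates 1 to 4. All SMC libraries were above all pericyte libraries, and pericyte replicate 2 was the lowest. The ratio of the mean FPKM was 7.19, and the log2 difference was 2.70 (standard error 0.31, limma q = 0.00104).

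Wisp2, a CCN family gene known as a transcript that Wnt can induce, had a log2 difference close to that of Sfrp2, and which of them was larger changed with the pseudocount and with the libraries left out. The gene is on chromosome 2 from 163646597 to 163658882 on the plus strand. SMC replicates 1 to 4 had 76.2, 51.3, 77.6 and 41.5 FPKM, and pericyte replicates 1 to 4 had 9.40, 5.89, 1.49 and 3.34 FPKM. The groups were far apart, and pericyte replicates 1 and 2 were above pericyte replicates 3 and 4, which was not so in SMCs. The log2 difference was 3.52 (standard error 0.45, limma q = 0.00155), and the ratio of the mean FPKM was 12.3.

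Rspo3, the only R-spondin in the set, acts in the direction opposite to the inhibitors. It lies on chromosome 10 from 29172915 to 29255673 on the minus strand. SMC replicates 1 to 4 had 3.62, 4.96, 2.12 and 2.92 FPKM, and pericyte replicates 1 to 4 had 0.715, 0.951, 0.242 and 0.357 FPKM. The groups did not overlap, and the lowest pericyte library corresponds to an estimated 13 fragments. The ratio of the mean FPKM was 6.02 and the log2 difference 1.48 (standard error 0.23, limma q = 0.00367).

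For each of the 8 genes whose groups did not overlap, a two-sided exact permutation test over the 8 libraries gave p = 0.0286, the smallest value that 4 against 4 allows. The exact permutation p was 0.257 for Sfrp5 and 0.886 for Frzb. With a pseudocount of 0.1 in place of 1, the log2 differences of Sfrp1 and Rspo3 rose to 2.18 and 2.47, and 8 genes passed the fold threshold in place of 6. The study's methods call the libraries of a group biological replicates, each pooled over sorts, and the labels do not tie them to mice, so these values measure the spread between pooled libraries.

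The genes higher in SMCs had the same direction as most fibroblast, tendon, endothelial and macrophage markers. The 10 secreted modulators summed to between 500 and 748 FPKM in SMC libraries and between 75.1 and 112 FPKM in pericyte libraries. The 10 fibroblast and fibro-adipogenic progenitor markers, all of which were higher in SMCs, summed to between 5559 and 6794 FPKM and between 621 and 995 FPKM, and among them Pdgfra, the receptor that marks these progenitors, had 36.1 to 46.8 FPKM in SMCs and 1.19 to 4.26 FPKM in pericytes. The 7 tendon markers summed to between 2936 and 4400 FPKM and between 242 and 761 FPKM, with 6 of 7 higher in SMCs. The 8 endothelial markers summed to between 366 and 1108 FPKM and between 91.3 and 154 FPKM, with 7 of 8 higher in SMCs. The 7 macrophage markers summed to between 472 and 740 FPKM and between 85.3 and 231 FPKM, with 5 of 7 higher in SMCs. No marker of these lists was at 0 in any library. The part of these cell types, and of the lymphocyte transcripts in pericyte libraries, in the differences of the 10 genes was not tested.

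The order of the levels could be compared because FPKM are scaled by length. In SMCs the mean FPKM fell in the order Sfrp4, Wif1, Sfrp5, Wisp2, Dkk3, Sfrp2, Dkk2, Rspo3, Frzb and Sfrp1. Neighbours in this order overlapped in range except at 3 steps. Sfrp4 was above Wif1, Sfrp2 above Dkk2 and Dkk2 above Rspo3 in every SMC library without overlap. In pericytes the order was Sfrp4, Sfrp5, Wif1, Dkk3, Wisp2, Frzb, Sfrp2, Dkk2, Rspo3 and Sfrp1, and every neighbouring pair overlapped.

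The share of the leading genes in the set went with the replicate number in both cell types. Sfrp4 took 54.6% and 48.2% of the summed FPKM of the 10 genes in SMC replicates 1 and 2, and 51.7% and 50.1% in pericyte replicates 1 and 2. In replicates 3 and 4 it took 28.6% and 41.4% in SMCs and 16.4% and 15.0% in pericytes. Sfrp5 took the opposite course, with 2.36% and 3.48% in SMC replicates 1 and 2 against 25.1% and 25.7% in SMC replicates 3 and 4. In pericytes it took 6.79% and 12.0% in replicates 1 and 2 and 50.1% and 60.6% in replicates 3 and 4, where it was the leading gene of the set. Frzb took 10.1% in pericyte replicate 3 and at most 4.27% in any other library. Shares of a common sum are tied, so a rise of any gene lowers the shares of the others even where their levels do not change.

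**Figure D3:**
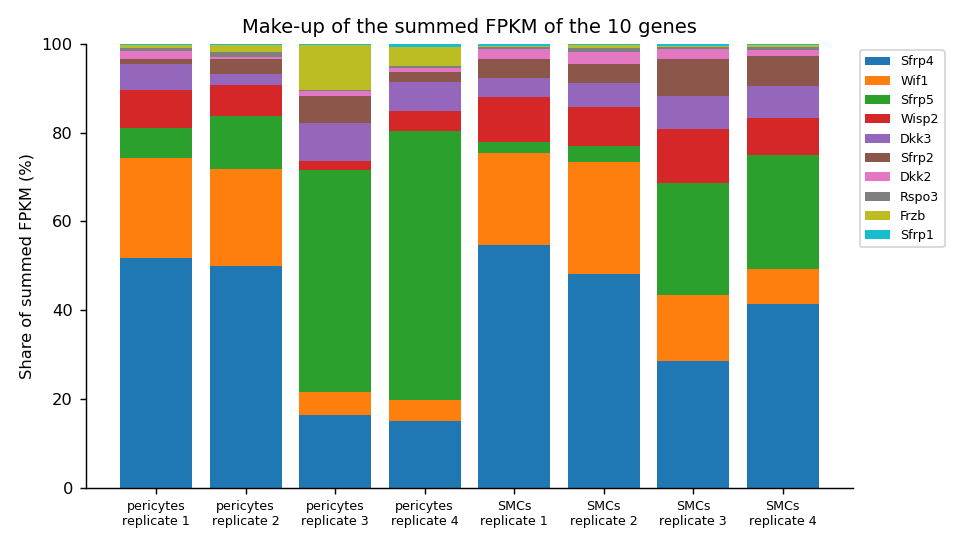
Share of each gene in the summed FPKM of the 10 genes, in percent, for 4 pericyte and 4 SMC libraries. Sfrp4 and Wif1 make up most of the bars in replicates 1 and 2, and Sfrp5 takes 25.1% to 60.6% in replicates 3 and 4.

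Within the groups, some of the genes were high or low in the same libraries, while Sfrp1 followed no other gene closely (correlations of -0.33 to 0.41 with the other 9). As deviations from the group means of log2(FPKM + 1) over the 8 libraries, Wif1 and Sfrp4 had a Pearson correlation of 0.91, Wif1 and Wisp2 of 0.83, and Wisp2 and Sfrp4 of 0.78. Sfrp5 ran against Wif1 (-0.85), Sfrp4 (-0.85) and Rspo3 (-0.88), and Frzb ran against Wisp2 (-0.90). These are descriptions over 8 libraries, 4 of each group, and no test was made. The mean of replicates 1 and 2 minus that of replicates 3 and 4 was, on the log2 scale, 1.29 in SMCs and 2.24 in pericytes for Wif1, 0.80 and 1.96 for Sfrp4, and -2.86 and -2.14 for Sfrp5. For Sfrp2 it was -0.52 and -0.51, small beside its difference of 3.42 between the cell types. Some other transcripts also differed between these replicates. The 4 satellite cell markers summed to 468 to 469 FPKM in SMC replicates 1 and 2 and to 165 to 186 FPKM in SMC replicates 3 and 4. Most of this sum was Chodl, at 405, 418, 166 and 136 FPKM in SMC replicates 1 to 4. Pax7 and Myf5 were also higher in SMC replicates 1 and 2. Myod1 was not, being lowest in SMC replicate 2 (11.7 FPKM) and highest in SMC replicate 4 (18.2 FPKM). The part of these transcripts in the values of the 10 genes was not tested.

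**Figure D4:**
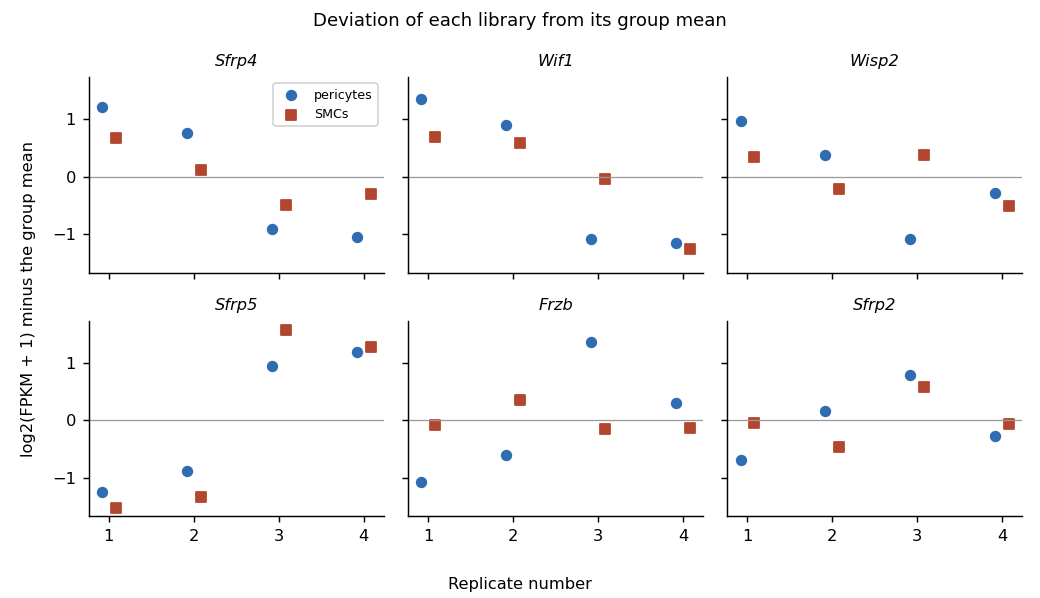
Deviation of each library from its group mean in log2(FPKM + 1), by replicate number, for 6 of the 10 genes in pericytes (blue circles) and SMCs (red squares). Sfrp4 and Wif1 are high in replicates 1 and 2 of both groups, Sfrp5 is high in replicates 3 and 4 of both, and Frzb varies mainly among pericyte libraries.

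The genes whose level over the 8 libraries was most like that of each member were taken from the 13612 genes that averaged 1 FPKM or more. These correlations are descriptions over 8 libraries. For the 8 genes higher in SMCs they mostly carry the difference between the groups that the genes share. Those of Sfrp5 and Frzb, which did not pass the main test, mostly carry differences between libraries within a group. Sfrp4 was most like Serpinf1, which encodes the secreted protein PEDF (Pearson r = 0.997), and then Il20rb and Bcl2l2. Wif1 was most like Slc46a1 (r = 0.998), Sgk1 and Kera, the gene of the matrix proteoglycan keratocan. Wisp2 was most like Zfp651 (r = 0.993), Ptgis, the prostacyclin synthase, and Il11ra1, a receptor chain for interleukin-11. Sfrp5 was most like Gm13554 (r = 0.992), Nlrx1 and Gpr146.

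Dkk3 was most like Chrdl1, a secreted BMP antagonist (r = 0.996), then Hgf, the hepatocyte growth factor, and Klf10. Dkk2 was most like Pde9a (r = 0.992), Gpt2 and Sema3c, a secreted guidance protein. Sfrp2 was most like Cd9 (r = 0.989), Phlda3 and the protease inhibitor gene Serpine2. Sfrp1 was most like Pla1a (r = 0.979), Fam101a and Vangl1, a planar cell polarity gene, and Rspo3 was most like Fut10 (r = 0.991), RP23-12I4.2.1 and Ssr3. Frzb had no neighbour as close, the highest being Klhdc5 (r = 0.918), Esyt2 and Stx11.

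The rest of the Wnt pathway was counted over 86 genes in 9 lists, which were drawn up with earlier results of these data known. In SMCs 23 of these genes had the higher level, and in pericytes 6 (limma, q below 0.05), against 11.2% and 10.6% of all genes tested. The median log2 difference was 0.21, and 29 of the 86 genes stayed under 1 FPKM in the mean of each group. The count higher in pericytes dropped to 3 without SMC replicate 2 and to 3 without SMC replicate 4. With replicates 1 and 2 against 3 and 4 as a covariate the counts rose to 31 in SMCs and 12 in pericytes, and those over all 27414 genes tested rose as well, from 3060 to 3929 and from 2917 to 3794. With TPM scaling the counts were 30 and 5. Median log2 differences over genes that averaged 1 FPKM or more shifted from -0.05 to 0.16 with TPM scaling, and no pathway gene that passed the test turned direction in any alternative.

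Among the 19 Wnt ligands, 4 were higher in SMCs and none was higher in pericytes, beside 11.2% and 10.6% of all genes tested. Of the genes that averaged 1 FPKM or more, 19.5% were higher in SMCs. These shares also stand beside the counts of the lists that follow. The count higher in pericytes was 1 with replicates 1 and 2 against 3 and 4 as a covariate. It was also 1 with every listed gene tested and without pericyte replicate 2. Wnt5a, a ligand known mainly for signalling without β-catenin, had 3.96 to 4.89 FPKM in SMCs and 0.113 to 0.766 FPKM in pericytes (log2 difference 2.03, limma q = 1.6e-04). Wnt9a had 2.19 to 4.41 FPKM in SMCs and 0.0301 to 0.418 FPKM in pericytes (limma q = 7.3e-04), and Wnt2 had 0.787 to 3.68 FPKM in SMCs and was at or near 0 in pericytes, with 0.0772 FPKM at most (limma q = 0.00609). The fourth, Wnt6, falls outside the naming rule and is given because the count is small (limma q = 0.0444). Wnt6 overlapped between the groups and lost its call in 7 of 17 alternatives, among them leaving out SMC replicate 1, 3 or 4 or pericyte replicate 1, 2 or 3 (limma q at most 0.108). Wnt11 was the most abundant ligand by mean, at 10.9 to 25.6 FPKM in SMCs and 2.22 to 38.3 FPKM in pericytes, and did not pass the test (limma q = 0.611). Of the genes that handle ligands, Porcn, which attaches the lipid, had 10.6 to 13.0 FPKM in SMCs and 1.78 to 4.57 FPKM in pericytes, and Wls, which carries Wnt to the surface, had 52.7 to 76.6 FPKM and 18.8 to 22.7 FPKM. Both were higher in SMCs (limma q = 0.00130 and 2.7e-04), and Notum, which removes the lipid, did not pass (limma q = 0.123), although its groups did not overlap. With the covariate for replicates 1 and 2 against 3 and 4, all 3 of these genes were higher in SMCs.

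Of 15 receptors and coreceptors, 6 were higher in SMCs, none was higher in pericytes and 9 did not pass, and 10 were higher in SMCs with TPM scaling or with the covariate. Fzd4 had 12.4 to 22.1 FPKM in SMCs and 0.956 to 4.44 FPKM in pericytes (log2 difference 2.27, limma q = 0.00249), and Fzd1 had 7.25 to 12.7 FPKM and 1.02 to 2.19 FPKM (log2 difference 2.04, limma q = 4.7e-04). Fzd6 had 3.07 to 7.64 FPKM in SMCs and 0.579 to 1.59 FPKM in pericytes (limma q = 0.00480). The other 3 were Fzd2, Fzd7 and Ror2, with at most 4.18 FPKM in any library, named here beyond the rule. The coreceptors Lrp5 and Lrp6, the targets of Dickkopf proteins, did not pass (limma q = 0.208 and 0.133), nor did the Dickkopf coreceptors Kremen1 and Kremen2.

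For the arm that R-spondins use, Lgr4, Lgr5, Lgr6 and Rnf43 did not pass the test. With the covariate for replicates 1 and 2, 1 of the 5 genes of this list was higher in SMCs and 2 were higher in pericytes. Rnf43, an E3 ligase that removes Frizzled from the surface, had 0.134 to 0.691 FPKM in SMCs and 0.665 to 3.08 FPKM in pericytes (limma q = 0.0711). Its relative Znrf3 was slightly higher in pericytes, at 1.47 to 2.37 FPKM against 1.03 to 1.40 FPKM in SMCs (log2 difference -0.39, limma q = 0.0424), a call that 12 of 17 alternatives lost, among them TPM scaling (limma q = 0.308) and leaving out any single library other than pericyte replicate 4.

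Of 13 other secreted modulators, 5 were higher in SMCs and Dkkl1 was higher in pericytes. Serpinf1, whose product PEDF can bind Lrp6, had 2197 to 5727 FPKM in SMCs and 132 to 702 FPKM in pericytes (log2 difference 3.58, limma q = 0.00643). Wisp1, a CCN relative of Wisp2, had 18.0 to 50.3 FPKM in SMCs and 3.23 to 10.8 FPKM in pericytes (log2 difference 2.32, limma q = 0.00782). Rspo1 had 0.811 to 1.502 FPKM in SMCs and 0.0242 to 0.469 FPKM in pericytes (limma q = 0.00650), and the other 2, Rspo2 and Apcdd1, were under 1 FPKM in the mean of each group. Dkkl1, a Dickkopf-like gene, had 5.13 to 18.5 FPKM in pericytes and 0.295 to 4.67 FPKM in SMCs (log2 difference -2.10, limma q = 0.0295). Dkkl1 lost its call in 7 of 17 alternatives, among them leaving out SMC replicate 2, 3 or 4 or pericyte replicate 1, 2 or 4 (limma q at most 0.0785). Rspo2 lost its call in 7 of 16, among them without SMC replicate 1, 2 or 3 or pericyte replicate 2, 3 or 4 (limma q at most 0.0754). Dkk1, Dkk4, Sost and Cer1 were each under 0.2 FPKM in the mean of both groups.

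**Figure D5:**
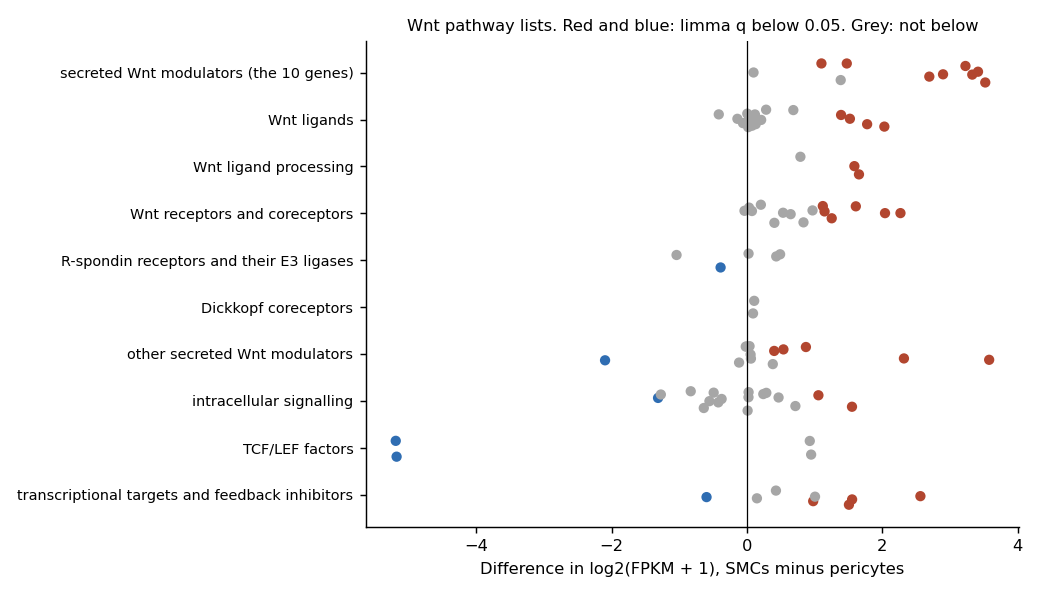
Difference in log2(FPKM + 1), SMCs minus pericytes, for the 10 genes and for 86 other Wnt pathway genes in 9 lists, 1 point per gene with vertical jitter. Red points were higher in SMCs and blue points higher in pericytes (limma q below 0.05), and the 2 points beyond -5 are Lef1 and Tcf7.

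Of 17 genes that act inside the cell, 2 were higher in SMCs and 1 in pericytes, beside 11.2% and 10.6% of all genes tested. Ctnnb1, which encodes β-catenin, had 121 to 144 FPKM in SMCs and 52.4 to 68.8 FPKM in pericytes (log2 difference 1.06, limma q = 5.1e-04), and the corepressor gene Tle2 was higher in SMCs (log2 difference 1.55, limma q = 0.0210) while Tle4 was higher in pericytes (log2 difference -1.31, limma q = 0.00434). The other 14 did not pass in this test, while with replicates 1 and 2 against 3 and 4 as a covariate 3 genes were higher in SMCs and 5 in pericytes. Tle2 lost its call without SMC replicate 4 or pericyte replicate 1, with a q value of at most 0.0575.

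Of the 4 factors that β-catenin binds, 2 were higher in pericytes. Tcf7 had 69.8 to 82.3 FPKM in pericytes and 0.856 to 1.36 FPKM in SMCs (log2 difference -5.18, limma q = 6.4e-07), and Lef1 had 58.3 to 134 FPKM in pericytes and 0.815 to 3.04 FPKM in SMCs (log2 difference -5.19, limma q = 6.8e-05). Both genes are known from T cells, whose 6 markers were all higher in pericytes, and the part of T cell RNA was not tested. Tcf7l1 and Tcf7l2 did not pass (limma q = 0.0764 and 0.192), with Tcf7l2 at 10.4 to 30.1 FPKM in SMCs and 5.36 to 15.3 FPKM in pericytes. With replicates 1 and 2 against 3 and 4 as a covariate, 1 of the 4 factors was higher in SMCs. The same count was found with the replicate block, with TPM scaling, with the filter at 1 FPKM and without SMC replicate 2.

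Genes that Wnt signalling is known to switch on formed 1 list, with a median log2 difference of 0.99. Of 8 such genes, Nkd2, Twist1, Tnfrsf19 and Bambi were higher in SMCs, Axin2 was higher in pericytes, and Nkd1, Sp5 and Ccnd1 did not pass. Nkd2, a feedback inhibitor, had 15.7 to 21.97 FPKM in SMCs and 1.04 to 3.71 FPKM in pericytes (log2 difference 2.56, limma q = 5.3e-04). Twist1 had 1.53 to 4.46 FPKM in SMCs and 0.0844 to 0.680 FPKM in pericytes (limma q = 0.00484), and Tnfrsf19 had 7.99 to 14.5 FPKM and 2.05 to 5.74 FPKM (limma q = 0.0110). Axin2, the scaffold gene often read as a Wnt target, was low throughout, at 0.0893 to 0.221 FPKM in SMCs and 0.323 to 1.11 FPKM in pericytes (log2 difference -0.60, limma q = 0.0238), and lost its call in 7 of 16 alternatives, among them quantile scaling and leaving out SMC replicate 2, 3 or 4 or pericyte replicate 3 or 4. Bambi overlapped between the groups (limma q = 0.0328) and lost its call in 9 of 17 alternatives, among them leaving out any single library other than pericyte replicate 2 (limma q at most 0.0851).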

How the data were processed

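RNA was amplified with the SMART-Seq v4 kit, and libraries were built with Nextera XT. For alignment the authors used Bowtie2 and TopHat with NCBI Build 37 of the mouse. The deposited values are FPKM on a linear scale, 1 per gene and library. The program that computed FPKM is not given in the sources used here. Gene positions came from GENCODE version 1 for mouse.

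FPKM hold no counts, so no counting error is given. Depth was estimated from values under 0.3 FPKM of genes with 1 transcript over 1500 bases, assuming fragments of 200 bases, and between 78.2% and 83.9% of these values lay within 0.1 of a whole number of fragments.

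The test was a linear model of log2(FPKM + 1) in limma 3.58.1 (R 4.3.3), with moderated variances and Benjamini-Hochberg adjustment (q value) over the 27414 genes above 0 in at least 1 library. Calls needed a q value below 0.05, and the second rule a log2 fold change above 2. On simulated data 180 of 200 genes changed by 4 log2 units were recovered by the second rule, with 0 false calls. The changed genes averaged above 4 on the log2(FPKM + 1) scale, and noise was drawn independently for each library. The simulation therefore does not cover lower genes, smaller changes or calls by the q value alone. Nor does it cover the split of replicates 1 and 2 from replicates 3 and 4. Exact permutation tests and figures used Python 3.11.15, numpy 2.4.6, scipy 1.17.1 and matplotlib 3.10.9.

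The members and gene lists were chosen with earlier results of these data known. Pathway genes were named by a rule of up to 3 per list and direction, by size of the log2 difference among those that passed. Genes most like a member were the 3 with the highest Pearson correlation. Other settings tried were 0.1 as the pseudocount, keeping genes that reach 1 FPKM in 4 or more libraries, testing every listed gene, TPM, quantile and median-ratio scaling, a replicate block, replicates 1 and 2 against 3 and 4 as a covariate, an intensity trend with robust variance, and leaving out each library.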

Additional observations from a re-analysis of the deposited data

Results flagged for a closer look

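Among 20 groups of 4 libraries (10 genes in pericytes and in SMCs, on the log2(FPKM + 1) scale), 2 held a library far from the other 3, and chance flags about 1 in 20 groups. In SMCs, Dkk2 of replicate 4 (7.37 FPKM) lay below the other libraries (14.9 to 16.2 FPKM) by a gap of 0.892 of the whole range. In SMCs, Frzb of replicate 2 (3.62 FPKM) lay above the other libraries (2.28 to 2.44 FPKM) by a gap of 0.864 of the whole range.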

How the results depend on the processing

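Across 17 alternatives, 8 of which leave out 1 library, the 8 genes called higher in SMCs kept their direction and their call in each. The count of the 10 genes higher in SMCs was 8 to 9, and none was higher in pericytes. The call of Sfrp5 changed with the replicate block, which gave a log2 difference of 1.39 with limma q = 0.0165, and with replicates 1 and 2 against 3 and 4 as a covariate (limma q = 0.00238), and its q value was 0.197 to 0.663 otherwise. Frzb turned negative without SMC replicate 2 (-0.02), without pericyte replicate 1 (-0.26) and without pericyte replicate 2 (-0.10), with a range of -0.26 to 0.55 when single libraries were left out, never passing the test. Pathway genes higher in pericytes numbered 6, and 12 with that covariate, with 3 to 7 when single libraries were left out. The cause of these changes was not tested. Same-numbered libraries deviated together with a correlation across genes of 0.0794 to 0.474 over 4 pairs (mean 0.327), 3 of them over 0.1. An SMC and a pericyte library of different numbers had -0.451 to 0.538, and 5 of 8 libraries correlated best with their own number. These values do not decide whether the numbers are pairs, which was not stated. The main test therefore left them unpaired, and the replicate block is given beside it. With the replicate block, 9 of the 10 genes were higher in SMCs and the block changed no other call among the 10. The depth limits Sfrp1 and Rspo3 most, with 13 to 61 estimated fragments in pericyte libraries.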
